A study of Mus musculus with 4 samples.

Results

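The collagen genes of the array were described in mouse liver cell lines. Members were all genes of the platform annotation whose single symbol reads Col, a number, the letter a and a number, such as Col4a1, and every probe set of theirs was used. They came to 42 genes with 82 probe sets, of 18193 genes with a single symbol and 45101 probe sets in all. By the type of chain, 11 genes encode fibrillar collagens, 8 basement membrane collagens and 23 other collagens.

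The data were 4 Affymetrix Mouse430_2 arrays, in 2 groups. MMH-D3, a hepatocytic line that the labels call differentiated, was hybridized to 2 of them. The RLSC group, for resident liver stem cells, held 2 lines on 1 array each, both selected for palmate colonies. MetE14/3 was started from the liver of an embryo, 14 days post coitum, that carried the cyto-Met transgene, and grew from clone B2. WTE14/1 came from an embryo liver of the same age labelled WT E14. The source name of the latter reads WT E14/3, and its title, WTE14/1, is used here. Each RLSC line is a single expanded line, frozen after about 50 cell generations. The labels do not name the promoter of the cyto-Met transgene or, for MMH-D3, a genotype or donor age. All cultures were started on dishes coated with collagen I, in medium with serum, epidermal growth factor, insulin-like growth factor II and insulin, and the RLSC colonies were then expanded in basal medium with serum, again on collagen I.

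Collagens are proteins of 3 chains wound into a triple helix. Fibrillar collagens form the banded fibrils of connective tissue, and types I and III make up most of the fibrous matrix of a scarred liver. Type IV collagen forms the sheet-like network of basement membranes. Type VI forms beaded microfilaments, type VII anchoring fibrils, and the fibril-associated collagens (FACIT) sit on the surface of fibrils. In liver, stellate cells and portal fibroblasts are known as the main makers of fibrillar collagen.

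Signals are the deposited probe set intensities on a linear scale, which depend on the probe, so levels of different genes were not compared with each other. The sums over marker lists given further on weigh each gene by the brightness of its probe set and serve only to compare arrays. Median signals of the arrays ran from 16.9 to 28.02. A difference is RLSC minus MMH-D3 on the scale of log2(signal + 4) after quantile normalization, with its moderated standard error (SE). Fold changes of genes near the floor are understated on this scale. Probe sets whose mean fell under the 40th percentile, or about 11.7 in signal, were not tested. Nothing in the labels tells if separate cultures gave the MMH-D3 arrays, so p-values cover only the spread between these arrays, which may be technical, and in RLSC that between 2 lines. MMH-D3 array 1 and MetE14/3 had median signals of 297 and 242 for the 24 poly-A control probe sets, transcripts added to the RNA before labelling, against 30.7 and 28.6 on MMH-D3 array 2 and in WTE14/1. Values of the first pair are deposited to 1 decimal and those of the second to more. These pairs hold an array of each group, and differences within each are given beside the results.

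The type IV genes lie in pairs that start back to back, and the start regions of the 2 pairs with tested members are shown because Col4a1 and Col4a2 had differences of 1.56 and 1.38 between the groups, and Col4a5 and Col4a6 of 2.04 and 0.29. The windows, from RefSeq on GRCm38.p6, run from 250 bases before to 50 after the start site. RefSeq windows were matched for 33 of the 42 collagen genes. Capitals mark the GC box (GGGCGG) and the CCAAT box (CCAAT), searched on both strands together with the TATA box (TATAAA), with no matches overlapping each other. Col4a1 is on the minus strand at chr8:11312777-11313076, Col4a2 on the plus strand at chr8:11312555-11312854, Col4a6 on the minus strand at chrX:141474027-141474326 and Col4a5 on the plus strand at chrX:141475169-141475468.
Col4a1: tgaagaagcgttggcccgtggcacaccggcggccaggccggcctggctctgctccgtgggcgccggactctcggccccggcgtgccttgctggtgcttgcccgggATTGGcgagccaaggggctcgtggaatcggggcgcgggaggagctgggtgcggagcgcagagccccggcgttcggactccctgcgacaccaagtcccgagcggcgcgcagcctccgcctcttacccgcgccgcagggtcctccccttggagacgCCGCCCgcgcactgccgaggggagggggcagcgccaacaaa
Col4a2: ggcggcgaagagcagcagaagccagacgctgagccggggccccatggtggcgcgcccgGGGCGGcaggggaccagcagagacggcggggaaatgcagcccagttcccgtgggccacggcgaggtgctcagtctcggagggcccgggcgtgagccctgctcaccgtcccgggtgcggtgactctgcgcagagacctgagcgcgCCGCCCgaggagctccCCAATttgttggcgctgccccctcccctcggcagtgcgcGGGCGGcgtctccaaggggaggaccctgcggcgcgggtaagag
Col4a6: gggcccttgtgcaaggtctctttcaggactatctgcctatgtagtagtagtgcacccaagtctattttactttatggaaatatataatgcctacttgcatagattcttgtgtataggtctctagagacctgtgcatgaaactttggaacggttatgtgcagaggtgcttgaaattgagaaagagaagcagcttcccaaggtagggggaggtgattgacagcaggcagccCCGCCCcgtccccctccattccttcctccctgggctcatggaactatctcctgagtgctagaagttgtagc
Col4a5: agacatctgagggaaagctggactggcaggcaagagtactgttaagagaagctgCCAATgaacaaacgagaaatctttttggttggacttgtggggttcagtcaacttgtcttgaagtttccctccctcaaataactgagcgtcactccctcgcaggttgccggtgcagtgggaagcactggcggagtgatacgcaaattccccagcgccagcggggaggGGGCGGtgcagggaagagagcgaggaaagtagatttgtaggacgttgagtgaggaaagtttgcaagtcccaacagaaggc
The start sites used for the Col4a1 and Col4a2 windows are 21 bases apart, so the windows share 78 bases, and 1 GC box lies in both. Those used for Col4a6 and Col4a5 are 1343 bases apart and the windows do not meet. RefSeq places the outer ends of the Col4a1, Col4a5 and Col4a6 genes at other bases than these sites. The Col4a1 and Col4a2 windows are 74% and 73.7% G and C, against 48.3% in Col4a6, 52.7% in Col4a5 and a median of 52.7% over all windows. A GC box was found once each in Col4a1, Col4a5 and Col4a6 and 3 times in Col4a2, and in 35.7% of all 32851 windows of this length. A CCAAT box was found once in each window except that of Col4a6, and in 37.4% of all windows. TATAAA was in none of the 4 windows and in 13.6% of all.

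The first comparison set RLSC against MMH-D3, as the series was designed. No collagen gene passed limma's test at an adjusted p of 0.05. In both RLSC lines, signals lay above both MMH-D3 arrays for the tested genes of basement membrane, type VI and type VII collagen. So they did for Col1a2, Col5a1, Col12a1 and Col16a1. For Col4a6 and Col1a2 the signals were low, at most 20.6 and 42.5 on any array. Col1a1 and Col3a1 were at or near the floor of most arrays. Of the 42 genes, 23 passed the filter and were tested. None was called higher or lower, where 0.397% of the 12598 genes tested were called higher and 0.516% lower. At an unadjusted p under 0.05 there were 8 of 23 members, against 12.4% of all genes. After normalization 14 of 23 lay above both MMH-D3 arrays and 2 below, against 20.8% and 21.4% of all genes. In the deposited signals the counts were 13 and 1, against 23.1% and 17.2%. The median difference of the 23 was 1.39, beside 0.03 over all genes tested. A gene silent in MMH-D3 passes the filter only through RLSC, so these counts cannot stand for all members. Over all 42 genes without a filter, 16 lay above both MMH-D3 arrays and 5 below, against 18.9% and 20.7% of 18193 genes, and the median difference was 0.35.

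**Figure D1:**
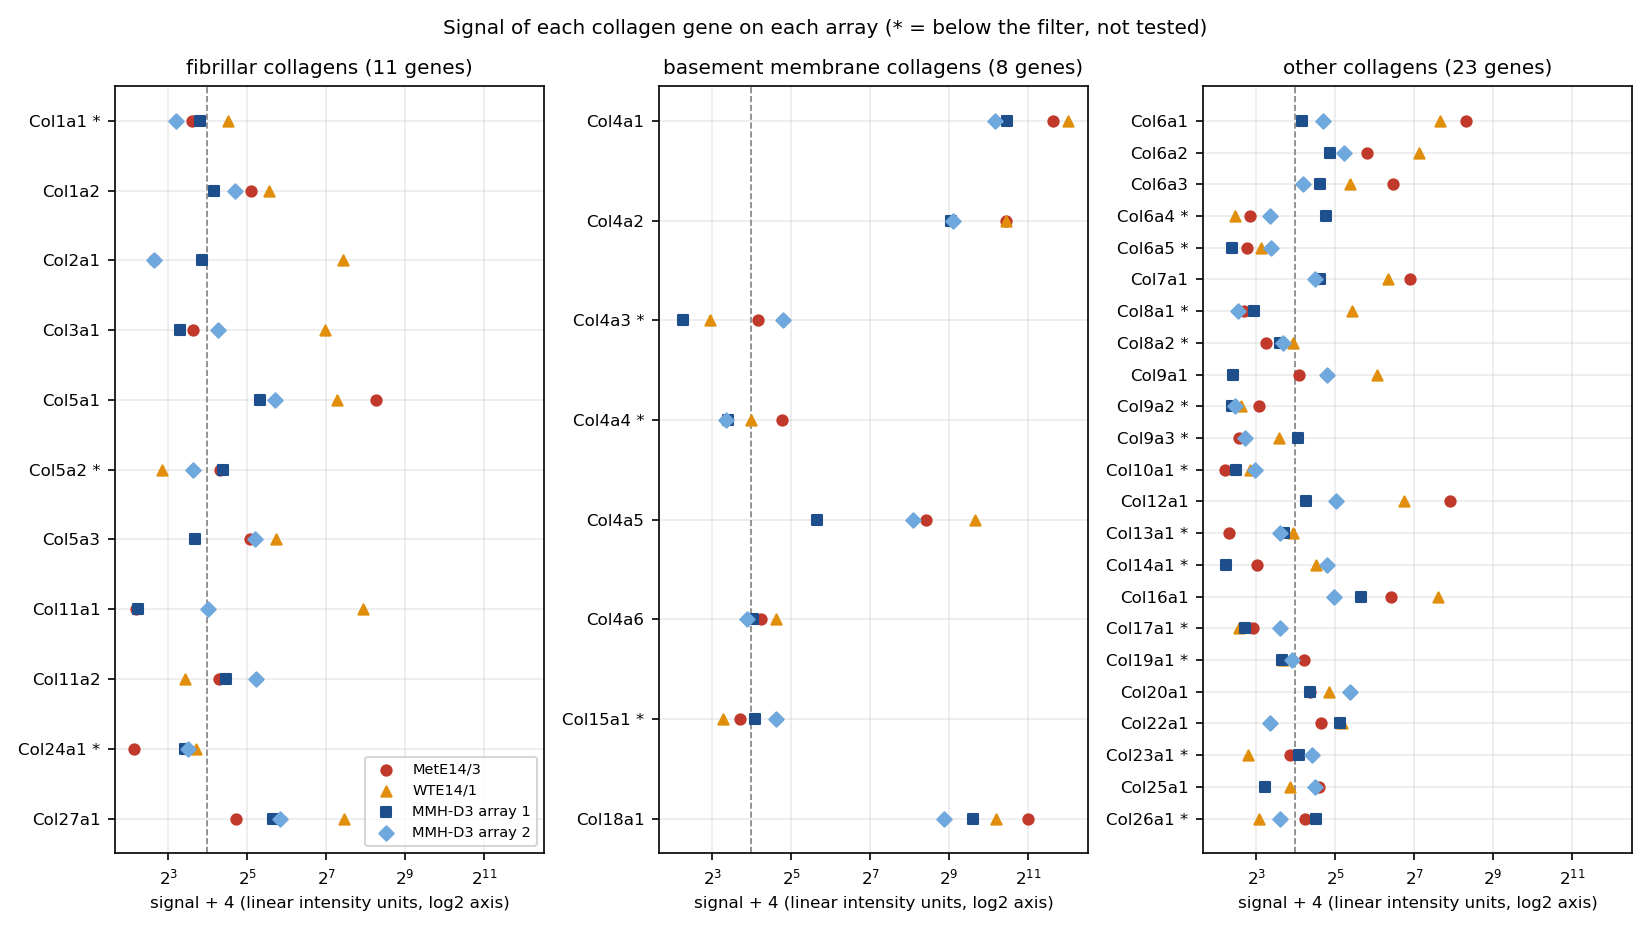
Signal plus 4 of every collagen gene (rows) on each of the 4 arrays, at its probe set with the highest mean, on a log2 axis, by collagen class. The dashed line is the filter level of 11.7 and an asterisk marks the 19 genes not tested; some points lie on top of each other. Col4a1, Col4a2, Col4a5 and Col18a1 stand right of the line on all 4 arrays, with both RLSC lines (circle, triangle) right of both MMH-D3 arrays (square, diamond).

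Of the basement membrane collagens, Col4a1, Col4a2, Col4a5 and Col18a1 were above the filter level on every array. Of 8 genes, 5 were tested. All 5 lay above both MMH-D3 arrays after normalization and in the deposited signals, against 20.8% and 23.1% of all genes. Their median difference was 1.39 (1.35 within the pair high in poly-A control, 1.41 within the other). Of the 3 genes not tested, Col4a4 lay above both MMH-D3 arrays after normalization without the filter, Col15a1 lay below and Col4a3 overlapped. The alpha1 and alpha2 chains of type IV, which wind together into the network found in most basement membranes, had differences of similar size. Col4a1 read 3145 in MetE14/3 and 4165 in WTE14/1, and MMH-D3 arrays 1 and 2 read 1409 and 1151. Both RLSC lines were thus above both MMH-D3 arrays, with means of 3655 ± 722 and 1280 ± 182 (SD, n = 2 each). The difference was 1.56 (SE 0.31; limma adjusted p = 0.0989), or 2.94-fold. The weaker Col4a1 probe set gave 1.53 (SE 0.44).

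Col4a2 read 1392 and 1388 in the RLSC lines, while MMH-D3 read 529 and 547. The arrays within each group nearly coincided, and the groups did not overlap. The difference was 1.38 (SE 0.35; limma adjusted p = 0.168), and it was 1.35 and 1.41 within the pairs. Col18a1, whose chain belongs to vascular and epithelial basement membranes and yields endostatin, read 2060 in MetE14/3, 1154 in WTE14/1, 781 and 466 in MMH-D3. Its difference was 1.39 (SE 0.45; limma adjusted p = 0.279). It was 0.42 without MetE14/3, where another probe set had the highest mean, and 0.80 without normalization between arrays. A second Col18a1 probe set gave 0.85 (SE 0.46), and there the deposited WTE14/1 signal of 935 lay under the 985 of MMH-D3 array 1.

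Col4a5, the alpha5 chain of type IV, read 336 in MetE14/3 and 804 in WTE14/1. MMH-D3 array 1 read 46.4 and array 2 read 269, so the arrays of this line were further apart than array 2 was from MetE14/3. The difference was 2.04 (SE 0.81; limma adjusted p = 0.384). It was 0.96 without MMH-D3 array 1 and 3.10 without array 2. Its second probe set had overlapping groups, with 100.2 in MetE14/3 against 151 on MMH-D3 array 2.

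The other type IV chains were near the floor. Col4a6, which starts back to back with Col4a5, read 14.9 and 20.6 in RLSC and 12.4 and 10.7 in MMH-D3. Its difference was 0.29 (SE 0.57). Col4a3 and Col4a4, the partners of Col4a5 in kidney and lung basement membrane, were not tested. Col4a3 read 13.8, 3.70, 0.8 and 23.8 in MetE14/3, WTE14/1 and MMH-D3 arrays 1 and 2, and Col4a4 read 23, 11.9, 6.6 and 6.17 in the same order. Col15a1, related to Col18a1, was not tested either, at 9.1 and 5.59 in RLSC and 12.9 and 20.6 in MMH-D3.

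**Figure D2:**
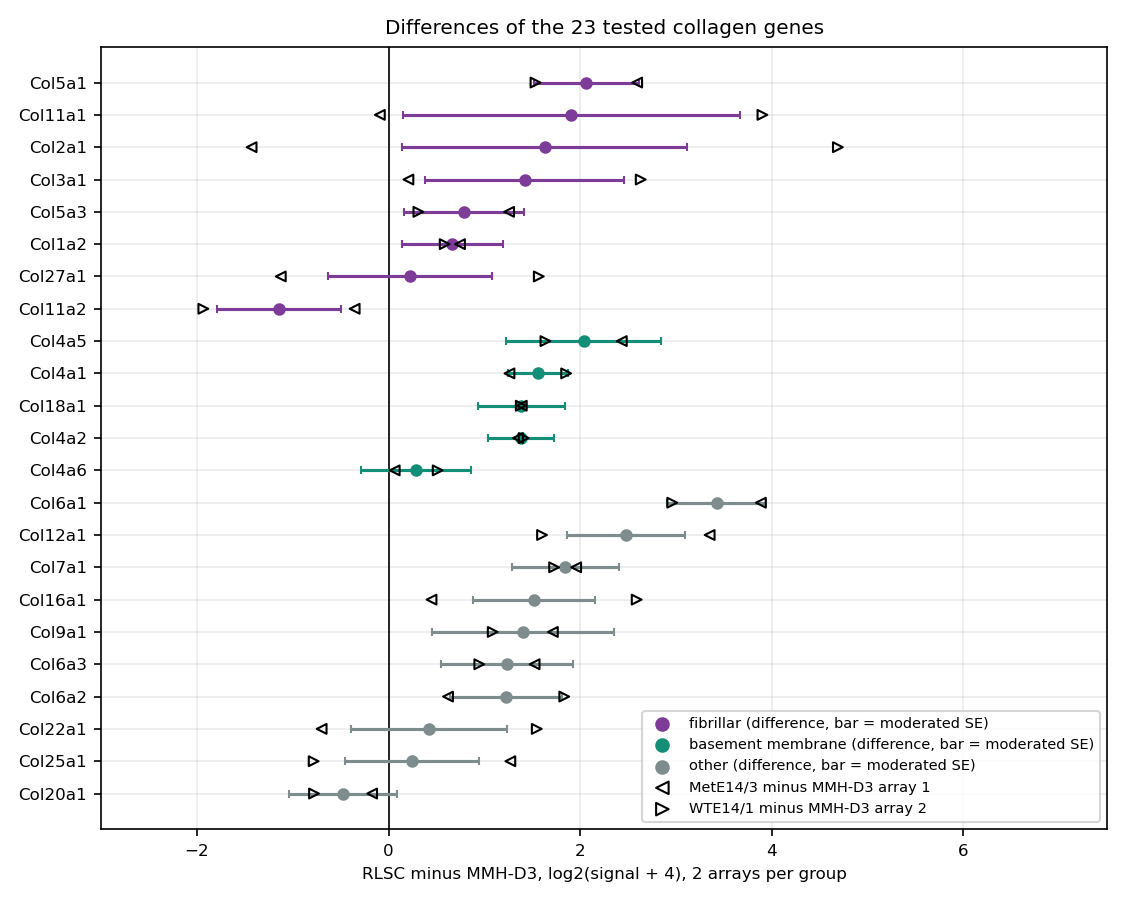
Difference RLSC minus MMH-D3 of the 23 tested collagen genes on the log2(signal + 4) scale; dots are the fitted differences from 2 arrays per group, bars their moderated SE, open triangles the difference within each pair of arrays alike in poly-A control signal. Col6a1 stands furthest right at 3.42, the triangles of Col4a2 nearly coincide, and those of Col2a1 lie on both sides of 0.

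Fibrillar collagens differed among themselves. Of 11 genes, 8 were tested, and the class median of 1.10 was 0.06 within the high poly-A pair and 1.55 within the other. It was 0.47 without WTE14/1. The most abundant collagens of fibrous tissue had little signal. Col1a1, the alpha1 chain of type I, was not tested: its probe sets read 8.0 and 0.8 in MetE14/3, 18.7 and 45.8 in WTE14/1, and at most 9.9 in MMH-D3. Col1a2, its partner chain, read 30.3 and 42.5 in RLSC and 13.9 and 21.98 in MMH-D3, which differ by 0.67 (SE 0.52; limma adjusted p = 0.719). Col3a1, the single chain of type III, read 8.4 in MetE14/3, 120 in WTE14/1 and 5.8 and 15.1 in MMH-D3. WTE14/1 alone stood apart, and the difference of 1.42 (SE 1.04) did not pass.

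Type V collagen takes part in starting fibrils. Its alpha1 gene, Col5a1, read 304 and 152 in the MetE14/3 and WTE14/1 lines, and 36.3 and 47.9 in MMH-D3, with no overlap of the groups. The difference was 2.06 (SE 0.55; limma adjusted p = 0.188), and the means were 228 ± 107 and 42.1 ± 8.20 (SD, n = 2 each). The size depended on the probe set. A second Col5a1 probe set read 581 and 241 against 3.5 and 16.0, a difference of 4.84 (SE 0.70), and the third gave 2.91 (SE 0.65). When all probe sets past the filter were tested one by one, Col5a1 was among the 2 collagen genes called higher, with Col6a1. Col5a2 was not tested, at 15.9 and 3.12 in RLSC and 16.9 and 8.31 in MMH-D3. Col5a3 read 29.7 and 49.3 against 8.7 and 32.4, a difference of 0.78 (SE 0.63), and its deposited signals overlapped.

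Type VI collagen is built from chains of Col6a1, Col6a2 and a longer chain such as Col6a3. Col6a1 read 314 and 198 in the MetE14/3 and WTE14/1 lines, and 13.7 and 21.6 in MMH-D3. Both RLSC lines were far above both MMH-D3 arrays, and the means were 256 ± 82.5 and 17.7 ± 5.61 (SD, n = 2 each). The fitted difference was 3.42 (SE 0.52) or 10.7-fold, the largest of the 23 tested members at the probe sets of highest mean. With the median of probe sets Col5a1 had the larger difference, 4.03, as it had without MMH-D3 array 1, with 4.22 against 3.28 for Col6a1. Without MetE14/3, Col11a1 at 4.71 and Col2a1 at 3.93 were larger than Col6a1 at 3.01. Within the low poly-A pair Col2a1 at 4.69 and Col11a1 at 3.90 were larger as well. The limma adjusted p of Col6a1, 0.0519, missed the threshold. Over the alternatives that kept all 4 arrays and 1 value per gene, it ran from 0.0425 to 0.103. Col6a1 passed without normalization between arrays, at a pseudocount of 16, with the median of probe sets and with the poly-A pair as a block (0.0489), and also when all probe sets were tested one by one. Within the pairs the difference was 3.89 and 2.96. Col6a2 read 51.9 and 136 in RLSC and 25.2 and 33.3 in MMH-D3. Its difference was 1.23 (SE 0.58), and 1.70 (SE 0.65) at its other probe set past the filter. Col6a3 read 84.6 and 37.6 against 20.6 and 14.0, a difference of 1.24 (SE 0.69). Neither passed, and the difference between the chains' differences was not tested. Col6a4 and Col6a5, further type VI chains, were not tested, with no signal above 23.1 at their top probe sets.

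Col12a1, a fibril-associated collagen of tendon and other stressed tissue, read 234 and 102 in the MetE14/3 and WTE14/1 lines, and 15 and 28.5 in MMH-D3. The groups did not overlap, and the difference was 2.48 (SE 0.62; limma adjusted p = 0.165). A second probe set read 469 and 64.4 against 6.6 and 4.56, a difference of 4.01 (SE 1.03). Col7a1, the chain of anchoring fibrils under stratified epithelia, read 115 and 77.1 against 20.6 and 18.2. Its difference was 1.84 (SE 0.56; limma adjusted p = 0.242) and 1.96 and 1.73 within the pairs. Col16a1, another fibril-associated chain, read 81.8 and 189 against 46.3 and 27.4, a difference of 1.52 (SE 0.63; limma adjusted p = 0.410), with 0.45 and 2.59 within the pairs.

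Of the remaining tested members, the groups overlapped in deposited signal for all but Col11a2, a chain of type XI, which read 15.4 and 6.70 in RLSC and 18.0 and 33.1 in MMH-D3 (difference -1.14, SE 0.65). Col20a1 gave -0.48 (SE 0.56), Col22a1 0.42 (SE 0.81) and Col25a1 0.24 (SE 0.70). Col20a1 and Col22a1 are fibril-associated and Col25a1 is a transmembrane collagen. The highest signal among these 3 was 37.5. The 19 untested genes read between 0.4 and 38.8 at their top probe sets, and the highest at any of their probe sets was 45.8. Among them were Col8a1, Col8a2 and Col10a1, the network-forming short chains, and Col13a1, Col17a1 and Col23a1, which are transmembrane. For 7 of the 42 genes no probe set reached the filter level on any array.

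**Figure D3:**
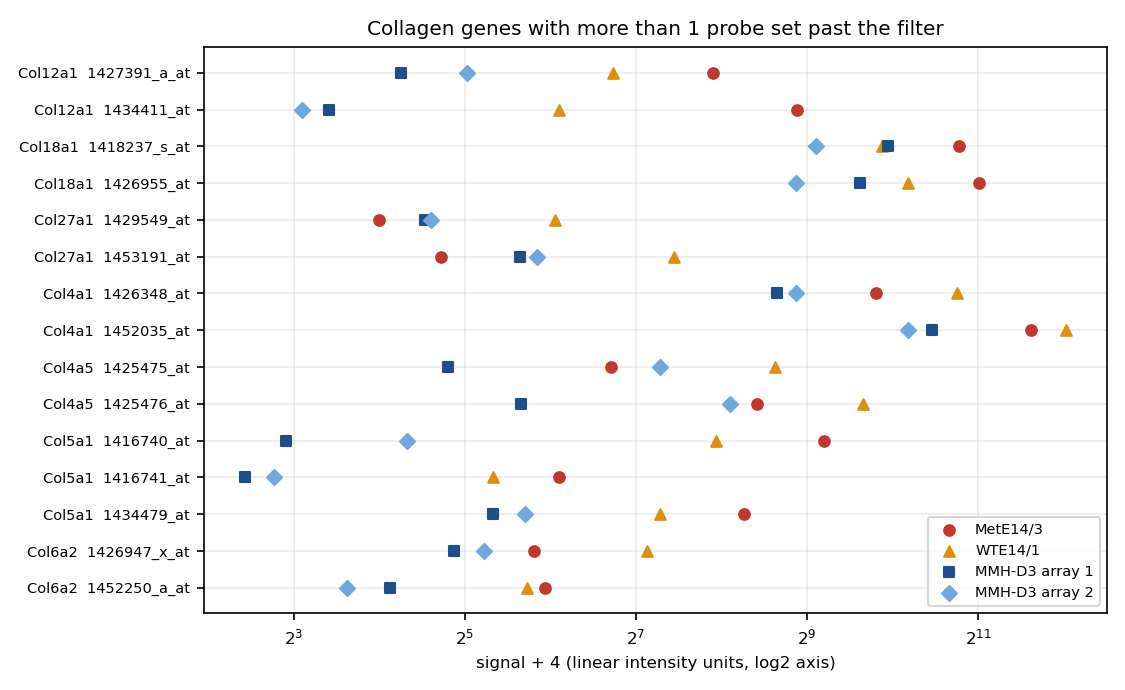
Signal plus 4 on a log2 axis for the 7 collagen genes with more than 1 probe set past the filter, 1 row per probe set and 1 symbol per array. The sign of the RLSC minus MMH-D3 difference was the same at all these probe sets of each gene, while the distance between groups differs, as for Col5a1 with 3 probe sets.

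The lines MetE14/3 and WTE14/1 were then compared directly; with a single array each there is no test, and folds of at least 4 were counted. At the probe sets of highest mean, WTE14/1 had 4 fibrillar collagens at least 4-fold above MetE14/3. These were Col11a1, Col2a1, Col3a1 and Col27a1, and no tested collagen was as far above in MetE14/3. Over all genes tested 2.33% were at least 4-fold above in WTE14/1 and 2.8% in MetE14/3. Between the MMH-D3 arrays, Col22a1 was at least 4-fold higher on array 1 and Col4a5 and Col9a1 on array 2, against 3.02% and 2.94% of all genes. A gene high on a single array can pass the filter through that array, so these counts cannot stand for all members. Without the filter, 5 of 42 collagens were at least 4-fold above in WTE14/1 and 0 in MetE14/3. The shares of 18193 genes were 2.33% and 2.31%. The lines have different genotypes and were on arrays of different poly-A control signal, which cannot be told apart here.

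Col2a1 and Col11a1 encode the alpha1 chains of the fibrils of cartilage. Col2a1 read 169 in WTE14/1 and 2.2 in MetE14/3, with 10.5 and 2.23 in MMH-D3. WTE14/1 was the only array above the filter level, and the lines differed by -4.64 on the log2 scale, MetE14/3 minus WTE14/1. Col11a1 read 239 in WTE14/1, 0.5 in MetE14/3 and 0.7 and 12.1 in MMH-D3, a difference of -5.65 between the lines. Its second probe set read 247 in WTE14/1 and at most 4.6 on the others. Col9a1, a fibril-associated collagen of cartilage, read 62.7 in WTE14/1, 12.9 in MetE14/3 and 1.3 and 23.6 in MMH-D3, a difference of -1.59. The other type IX genes, Col9a2 and Col9a3, were not tested, and read at most 4.3 and 12.6 at their top probe sets.

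Col27a1, a fibrillar collagen of growing cartilage, read 170 in WTE14/1, 22.4 in MetE14/3 and 45.9 and 53.2 in MMH-D3, so that the lines lay on either side of MMH-D3. Its second probe set had the same order of lines, with 62.4 in WTE14/1, 11.9 in MetE14/3 and 19.1 and 20.3 in MMH-D3. There the lines differed by -1.68, short of 4-fold. Col3a1 differed by -3.09 between the lines at its top probe set. Its other probe set, under the filter, read 4.5 in MetE14/3 and 14.5 in WTE14/1, a difference of -0.82. Without the filter Col8a1 was the fifth gene at least 4-fold above in WTE14/1, at 38.8 against 2.4. In the opposite direction Col6a3, Col12a1 and Col5a1 were 1.42, 1.33 and 1.10 higher on the log2 scale in MetE14/3. At the second Col12a1 probe set the gap was 3.04, past 4-fold. The median over the tested collagens was -0.06, beside 0.00 over all genes.

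**Figure D4:**
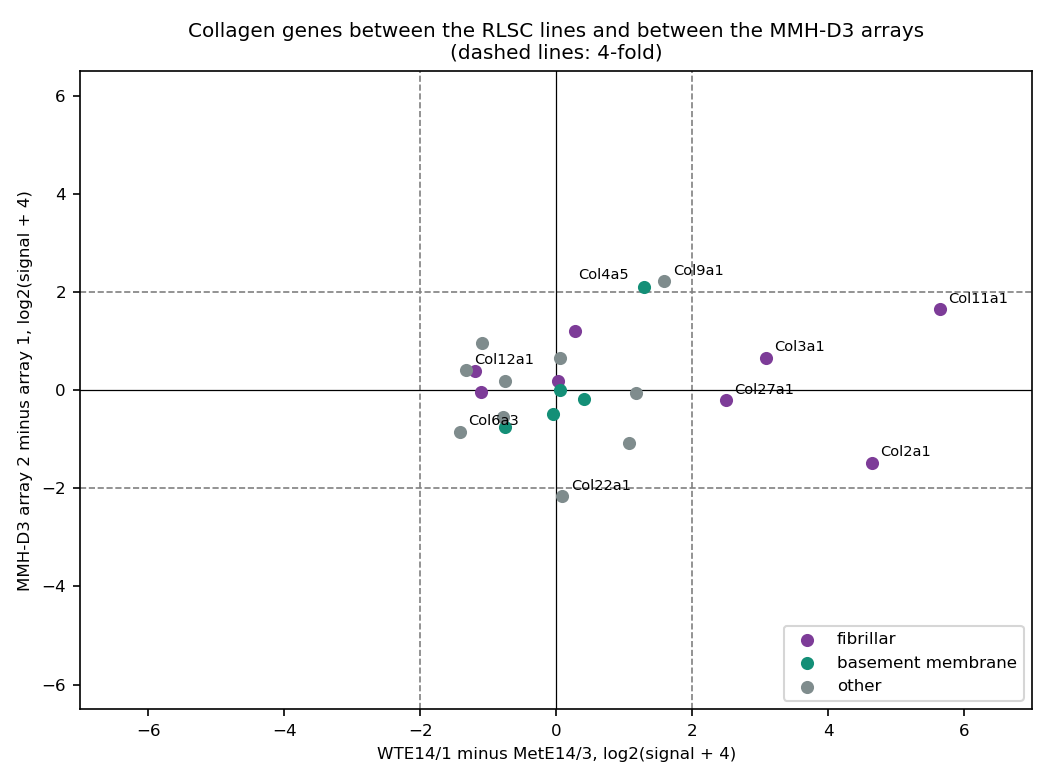
Difference between the RLSC lines (horizontal, WTE14/1 minus MetE14/3) and between the MMH-D3 arrays (vertical, array 2 minus array 1) of the 23 tested collagen genes on the log2(signal + 4) scale; dashed lines mark 4-fold and single arrays give no error bars. Col11a1, Col2a1, Col3a1 and Col27a1 lie right of the dashed line, and basement membrane genes lie near the vertical axis except Col4a5.

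Markers of cell types were read on the same arrays. In such bulk RNA, fewer cells of a type and less RNA per cell cannot be told apart. The hepatocyte markers with a probe set named here (6 of 8) summed to 369 and 167 in MetE14/3 and WTE14/1 and to 5493 and 9793 on the MMH-D3 arrays, with Alb at 1.7 and 2.91 and at 44.7 and 440. The 9 stellate and fibroblast markers summed to 1947 and 9115 in RLSC and to 121 and 187 in MMH-D3. Acta2 read 1638 and 8962 against 47.5 and 38.7, and Pdgfrb read 248 and 65.8 against 0.2 and 1.19. Dcn, Lum and Pdgfra ran the other way. Dcn read 1.1 and 4.01 against 15.6 and 17.3, and Lum read 5 and 7.02 against 10.9 and 31.4. Pdgfra read 12.1 and 6.80 against 13.2 and 21.0. Of the 9 markers, 4 and 5 were at or above the filter level in the RLSC lines, while MMH-D3 had 4 and 6. The stellate sum, mostly Acta2 in the RLSC lines, moved with Col5a1, Col6a1 and Col12a1 between the groups. Basement membrane genes such as Col4a1 and Col4a2 were higher in RLSC as well. Between the lines the stellate sum was larger in WTE14/1, where Col5a1, Col6a1 and Col12a1 read lower than in MetE14/3. Col3a1 and Col1a1 read higher in WTE14/1, at 120 against 8.4 and 18.7 against 8.0 at their top probe sets. The part of the stellate markers in the results was not tested.

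Of 5 cartilage and bone markers 3 had a probe set named here. Sox9, a regulator of Col2a1 and Col11a1 in cartilage, read 123 in MetE14/3, 220 in WTE14/1 and 27.6 and 13.5 in MMH-D3, whereas Acan and Comp, structural genes of cartilage, read at most 21.2 on any array. The list summed to 134 and 244 in RLSC and to 63.4 and 43.6 in MMH-D3. Endothelial markers (6 of 6) summed to between 24.5 and 84.4, and macrophage and blood markers (5 of 5) to between 103 and 154. The mesothelial list (4 of 4) summed to 10144 and 5037 in RLSC and to 17109 and 24350 in MMH-D3, and the cholangiocyte list (3 of 3) to 1749 and 1301 against 2627 and 3602. Krt7 made up most of the cholangiocyte sum, at 1587 and 1072 against 2478 and 3135. Epcam read 39 and 8.56 against 121 and 453, while Sox9, also on this list, ran the other way. The part of these markers in the collagen results was not tested.

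Genes that make, process, bind or cut collagen were taken as 6 lists of 73 genes; 67 were named on the array and 49 were tested. In the same limma fit 2 were called higher in RLSC and none lower, where 0.397% and 0.516% of all genes were. The median of the 49 differences was 0.70. Pxdn, peroxidasin, forms the sulfilimine crosslinks of type IV collagen. It read 799 and 1365 in RLSC and 85.6 and 104 in MMH-D3, and differed by 3.35 (SE 0.47; limma adjusted p = 0.0421), with 2.91 and 3.80 within the pairs. Fibronectin (Fn1), a glycoprotein on which fibrils assemble, read 5433 and 7927 against 825 and 1269, a difference of 2.67 (SE 0.35; limma adjusted p = 0.0372). Neither passed without either MMH-D3 array or without WTE14/1.

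Modification and folding genes (16 of 19 tested) had a median of 0.75 and none called. After normalization 9 lay above both MMH-D3 arrays and 1 below, against 20.8% and 21.4% of all genes. Largest in this list was the difference of Plod2, at 2.47 (SE 0.43; limma adjusted p = 0.0690). The disulfide isomerase P4hb was at -0.37 (SE 0.24) and the prolyl isomerase Ppib at 0.16 (SE 0.27). Propeptide cleavage and crosslinking genes (9 of 14) had a median of 1.48 with Pxdn called, and Pcolce, an enhancer of propeptide cleavage, was at 1.48 (SE 0.67). Loxl1 had the largest difference of this list, 5.43 (SE 1.07; limma adjusted p = 0.0962). It read 110.5 in MetE14/3, 986 in WTE14/1, and 6.3 and 1.37 in MMH-D3. Lox, at 3.51 (SE 1.45), read 15.2 in MetE14/3, 567 in WTE14/1, and 3.9 and 6.36 in MMH-D3. Receptors (7 of 10) had a median of -0.48 and none called, and after normalization 2 lay above both MMH-D3 arrays and 3 below, against 20.8% and 21.4% of all genes. The list's largest differences were those of the integrin chains Itga1 and Itga2, which pair with Itgb1 to bind collagen. Itga1 read 3.4 and 1.73 in RLSC, while MMH-D3 read 51 and 209, and the groups differed by -4.21 (SE 0.71; limma adjusted p = 0.0640). Itga2 read 23.8 and 32.9 against 159.5 and 424, a difference of -3.23 (SE 0.57; limma adjusted p = 0.0737). Itgb1 itself was at 0.64 (SE 0.28) and the receptor kinase Ddr1 at 0.70 (SE 0.34). Collagen-cutting proteases (3 of 8) had a median of 0.75 and none called. The collagenase Mmp13 read 23.8 and 13.2 in RLSC and 720 and 7603 in MMH-D3, or -6.81 (SE 1.09; limma adjusted p = 0.0561), and the membrane protease Mmp14 was at 1.65 (SE 0.44).

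Other basement membrane components had differences on both sides of 0. Of 15 genes 10 were tested, with a median of -0.27 and none called. After normalization 3 lay above both MMH-D3 arrays and 5 below, against 20.8% and 21.4% of all genes. Nidogen 1 (Nid1), a linker of laminin and type IV collagen, read 2237 and 3044 against 1020 and 1258, a difference of 1.24 (SE 0.35; limma adjusted p = 0.207), and the laminin chain Lamb1 was at 1.79 (SE 0.58). Below both MMH-D3 arrays were the laminin chains Lamb3 at -4.77 (SE 1.74), Lamc1 at -1.02 (SE 0.47) and Lamb2 at -0.61 (SE 0.47). So were nidogen 2 (Nid2) at -2.43 (SE 0.77) and agrin (Agrn) at -1.56 (SE 0.71). In the deposited signals Lamb2 overlapped, with 204.6 in MetE14/3 against 202.1 on MMH-D3 array 1. For Lamb3 the lines stood apart: MetE14/3 read 277, WTE14/1 read 0.937, and MMH-D3 read 672 and 1420. Fibril-binding proteoglycans and glycoproteins (4 of 7) had a median of 2.16 with Fn1 called, and Sparc, a collagen-binding glycoprotein, was at 1.66 (SE 0.49). After normalization 3 of these lay above both MMH-D3 arrays and 0 below, against 20.8% and 21.4% of all genes. Bgn had the largest difference there, 3.05 (SE 0.58; limma adjusted p = 0.0877), with MMH-D3 signals near the floor.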

How the data were processed

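RNA levels were measured on 4 Affymetrix arrays. Each deposited value is a probe set's signal, an intensity on a linear scale. The authors made them with GCOS, Affymetrix's software, as the submitters' processing notes list; version and algorithm: not given in the sources used here. With 2% of probe sets trimmed at either end, the mean of every array was 200.001. Names came from the platform annotation, checked by Entrez identifier against a RefSeq table of GRCm38.p6 (34741 of 34945 single-symbol probe sets matched, 0 symbols changed).

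Arrays were quantile normalized on log2(signal + 4) without the 64 control probe sets, because their medians differed by 0.614 (log2), over the limit of 0.25. For a gene, the probe set of highest mean past the 40th percentile was used. The 12598 genes so tested entered one fit in limma 3.58.1 (R 4.3.3; lmFit and trended eBayes; 2 residual and 4.24 prior degrees of freedom), two-sided and adjusted after Benjamini-Hochberg. The collagen members, the 6 partner lists, the 7 marker lists and the tests were chosen with earlier results of these data known. Values are named for every tested collagen, every member with a signal of at least 100 at its top probe set, a fixed set of chains, and, in partner lists, genes past the threshold and the 2 with the highest mean. The others named were chosen after their values were seen. Alternatives changed normalization, pseudocount, filter, probe set choice, trend, arrays and a block on the poly-A pairs. The number of arrays limits the precision. Tested on simulated data for this comparison (200 of 12598 genes changed), the fit recovered 99.6% of changes of 6 and 78.7% of changes of 3 on the log2 scale. It called 191 genes on average, 13 of them falsely. Recovery of changes smaller than 3 was not measured, and of the tested collagens only Col6a1 had a fitted difference over 3. In the real data the smallest change called over all genes was 3.91-fold.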

Additional observations from a re-analysis of the deposited data

Results flagged for a closer look

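For 2 tested collagens the RLSC lines lay on opposite sides of both MMH-D3 arrays; 1430 of all genes tested, 11.4%, did so. Col11a1 was -0.92 in MetE14/3 and 4.73 in WTE14/1 from the MMH-D3 mean on the log2 scale, the first of these between signals near the floor. Col27a1 was -1.03 in MetE14/3 and 1.47 in WTE14/1 from that mean. The difference was not tested, as each line had 1 array.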

How the results depend on the processing

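The limits are the number of arrays, 2 lines in 1 group, missing detection calls and floor signals. Leaving out each array in turn gave median differences of 1.21 to 1.41 for basement membrane, 0.47 to 1.49 for fibrillar and 0.72 to 1.77 for other collagens, 0 collagens called in either direction, and 0 to 3 partner genes called higher and 0 to 1 lower. The basement membrane median was 1.11 without a filter. The median of other collagens was 1.32 as tested above and 1.5 without normalization between arrays. It was 1.48 and 0.97 at pseudocounts of 1 and 16, 0.14 without a filter and 1.84 at the 60th percentile filter. With the median of probe sets it was 1.43, with all probe sets 1.46 and within the low poly-A pair 1.57. The fibrillar median, 1.10 as tested above, was 0.67 without a filter, 0.90 and 0.80 at pseudocounts of 1 and 16, and 1.42 with all probe sets. Collagens called higher numbered 1 (Col6a1) without normalization, at pseudocount 16, with the median of probe sets and with the poly-A block, and 2 (Col5a1, Col6a1) with all probe sets. Collagens at least 4-fold higher in MetE14/3 numbered 1 with the median of probe sets and with all probe sets; those higher in WTE14/1 numbered 1 at the 60th percentile filter. Partner genes called higher numbered 0 without a filter and without a trend and 1 with the median of probe sets; 1 was called lower without normalization and with the poly-A block. Over all genes, 115 were called, with 164 under the block, 9 without a filter and none without either MMH-D3 array. The causes were not tested. Of the 23 tested collagens' differences, the sign turned in 8 cases without a call, all in Col2a1, Col11a1, Col22a1, Col25a1 and Col27a1. By replicate number, no paired analysis was possible because the labels number only the MMH-D3 arrays. The block above is on the poly-A pairs, which the labels do not give.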
